A study of Mus musculus with 14 samples.

Results

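The promoters of 132 olfactory receptor genes, named Olfr543 to Olfr714, were examined for DNA methylation in 6 clonal lines of the mouse mammary carcinoma line 4T1. The members were all rows of the deposited promoter table whose gene name fell in that numbered range, which gave 132 of 21965 promoters. All of them lie on chromosome 7 in the RefSeq annotation of GRCm38.p6. By their MOR family names, 110 members were class I receptors (MOR1 to MOR42), 18 were class II receptors (MOR100 and above) and 4 could not be classed. RefSeq lists 136 genes in this range of names, of which 4 had no row.

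The study derived 23 clonal lines from single cells of 4T1, tested them as a pool for entry into blood vessels, and sequenced bisulfite-converted genomic DNA of some of them. Per the labels, E and T are intravasating clones, while I, K, L and P are non-intravasating ones. All 6 descend from the same untreated tumour line, each from a single cell, and each gave 1 deposited level per promoter although the labels list 2 rounds of libraries per clone. The comparison thus set 2 clones against 4, and each clone was 1 replicate. A p-value sets the difference between these groups against the spread between clones, which was estimated with information from all promoters. How many reads stand behind a level is unknown.

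Olfactory receptors are G protein-coupled receptors with which sensory neurons of the nose detect odorants, and each such neuron uses a single receptor gene. Class I receptors are the group that mammals share with fish, and in the mouse their genes stand in 1 large cluster on chromosome 7 around the beta-globin genes, while class II genes are spread over many chromosomes. Outside the nose most receptor genes are silent. Bisulfite changes cytosine unless it is methylated, so the methylation level of a promoter is a fraction from 0 (none) to 1 (full), and in mammals it sits almost entirely on cytosines followed by guanine (CG).

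RefSeq windows (GRCm38.p6) of 5 members are printed 5′ to 3′, each from 250 bases before to 50 bases after the annotated gene start. They are the pair with the highest mean level (Olfr692 and Olfr543), the lowest (Olfr695), the one that varied most between clones (Olfr663) and, chosen after its values were seen, one of those richest in CG (Olfr688). Capitals mark each CG. At the gene start, the windows of Olfr692, Olfr663 and Olfr688 read ATG, the letters that open a coding sequence. The annotated start may thus be that of the coding sequence, and whether transcription begins there was not tested.
Olfr692, chr7:105368078-105368377, plus strand: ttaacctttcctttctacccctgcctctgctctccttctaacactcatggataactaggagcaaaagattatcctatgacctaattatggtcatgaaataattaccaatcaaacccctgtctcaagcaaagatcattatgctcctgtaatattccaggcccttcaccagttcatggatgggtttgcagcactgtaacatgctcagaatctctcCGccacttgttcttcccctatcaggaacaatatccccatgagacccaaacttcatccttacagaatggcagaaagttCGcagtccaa
Olfr543, chr7:102477853-102478152, minus strand: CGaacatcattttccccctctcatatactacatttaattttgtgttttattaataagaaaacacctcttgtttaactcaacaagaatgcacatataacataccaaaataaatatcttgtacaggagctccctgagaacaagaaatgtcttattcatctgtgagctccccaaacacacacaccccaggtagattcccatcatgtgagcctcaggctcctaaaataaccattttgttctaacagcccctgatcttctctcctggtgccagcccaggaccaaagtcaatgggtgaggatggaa
Olfr695, chr7:106716296-106716595, minus strand: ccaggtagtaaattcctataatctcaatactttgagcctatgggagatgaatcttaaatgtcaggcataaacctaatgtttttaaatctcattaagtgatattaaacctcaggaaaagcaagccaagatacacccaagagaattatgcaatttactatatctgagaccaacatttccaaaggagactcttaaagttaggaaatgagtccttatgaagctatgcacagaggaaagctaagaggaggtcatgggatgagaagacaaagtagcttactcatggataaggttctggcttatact
Olfr663, chr7:104703319-104703618, plus strand: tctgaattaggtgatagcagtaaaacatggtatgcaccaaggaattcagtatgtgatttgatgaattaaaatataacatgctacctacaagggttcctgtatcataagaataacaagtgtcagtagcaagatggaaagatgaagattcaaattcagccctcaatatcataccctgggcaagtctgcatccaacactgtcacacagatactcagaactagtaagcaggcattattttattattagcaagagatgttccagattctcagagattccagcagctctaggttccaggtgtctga
Olfr688, chr7:105287845-105288144, plus strand: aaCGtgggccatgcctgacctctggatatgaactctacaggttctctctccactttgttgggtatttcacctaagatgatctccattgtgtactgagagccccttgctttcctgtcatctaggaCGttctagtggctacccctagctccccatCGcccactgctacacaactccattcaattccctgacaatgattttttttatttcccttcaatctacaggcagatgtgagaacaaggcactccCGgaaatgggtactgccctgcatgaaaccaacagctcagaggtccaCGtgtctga
The Olfr692 window holds 2 CG, that of Olfr543 holds 1 and that of Olfr688 holds 5, while those of Olfr695 and Olfr663 hold none.

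CG was rare in the windows as a whole. RefSeq windows were found for 114 members, with a median of 1 CG and at most 5. No CG at all stood in 37.7% of member windows, against 32.8% of 830 windows of other olfactory receptors and 5.43% of all 32851 RefSeq windows. The median GC content was 37.3% in members, 35% in other olfactory receptors and 52.7% in all windows. Members whose window held no CG still had a deposited level, so the authors' promoter interval, whose bounds are not known here, is not this window. The levels below therefore cannot be tied to single printed CGs.

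Short motifs were counted on both strands of the windows, and the shares describe sequence around annotated gene starts. The letters CCCNNGGG, the core bound by EBF factors of olfactory neurons, stood in 3.51% of member windows, against 3.01% in other olfactory receptors and 13.7% in all windows. Of the LIM homeodomain letters, TAATTA stood in 13.2%, against 19.4% and 5.29%, and TAATGA in 28.1%, against 28.9% and 9.78%. The letters TAATTA and TAATGA share their first bases, and matches may overlap. The TATA letters TATAAA stood in 42.1%, against 41.1% and 13.6%. The members thus resembled other olfactory receptors more than all windows in each of these shares. Among the printed windows, that of Olfr692 holds TAATTA 2 times and TAATGA 1 time, and that of Olfr695 holds TAATGA 1 time.

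The level of a member had little relation to the CG count of its window. Across 114 members the mean level over the clones had a Pearson r of 0.18 and a Spearman rho of 0.14 with the CG count, and an r of 0.24 with the GC content. These points share clones and libraries, and genes are not independent replicates. The median level was 0.469 in the 43 members with no CG in the window and 0.536 in the 16 members with 3 or more. Among the 37 members with at least 2 CG, r was 0.0896.

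Most of these receptor promoters were partly methylated. The mean over 6 clones lay between 0.2 and 0.8 in 113 of 132 members, or 85.6%, against 75.7% of 955 other olfactory receptor promoters and 46.9% of all promoters. The median member was at 0.487, with quartiles of 0.334 and 0.614, against 0.344 for other olfactory receptors and 0.328 for all promoters. High methylation was rare, since 3 members, or 2.27%, were above 0.8, against 1.15% of other olfactory receptors and 14.5% of all promoters. So was low methylation: 8 members, or 6.06%, were below 0.1, against 8.17% of other olfactory receptors and 24.1% of all promoters. In both shares the members were thus near the other olfactory receptors.

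Other olfactory receptors gave a scale for this. On the 12 chromosomes that held at least 20 of them, their medians ran from 0.239 on chromosome 14 to 0.519 on chromosome 1, and the 102 others on chromosome 7 were at 0.375. The member median lay inside that range, toward its upper end. These comparisons of sets are descriptions, with no test.

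The 5 highest members were all class I. Olfr692, a receptor known from a subset of vomeronasal neurons of the mouse, was at 0.827 in E and 0.756 in T, and 0.888 in I, 0.809 in K, 0.854 in L and 0.903 in P. Clone T was the lowest and clone P the highest, and the groups overlapped. Olfr543 was at 0.804 in E and 0.817 in T, and 0.834 in I, 0.791 in K, 0.838 in L and 0.869 in P. All 6 clones lay within 0.0784 of each other there, one of the narrowest ranges of any member. Olfr658, Olfr638 and Olfr691 followed with means of 0.811 ± 0.0530, 0.778 ± 0.0637 and 0.755 ± 0.0839 (SD, n = 6).

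The 5 lowest members came from both classes. The class II gene Olfr695 was listed at 0 in all 6 clones, and an unmethylated promoter and one without a usable estimate cannot be told apart there. Olfr702, also class II, was at 0 in E and 0.0196 in T, and 0.0455 in I, 0.0294 in K, 0.0625 in L and 0 in P, and the class I gene Olfr611 was at 0.0889 in E and 0 in T, and 0.0833 in I, 0.0833 in K, 0 in L and 0.020 in P. Both were nearly free of methylation in every clone, and their groups overlapped. Olfr630 and Olfr697 were at 0.0599 ± 0.0163 and 0.0618 ± 0.0656 (SD, n = 6). In all, 7 members were listed at 0 in at least 1 clone.

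Few members have a known ligand. Olfr544, a receptor for azelaic acid, was at 0.697 ± 0.0194 over intravasating clones (SD of 2), against 0.692 ± 0.0726 over non-intravasating clones (SD of 4). Olfr558, which responds to short-chain fatty acids, was at 0.458 ± 0.0912 over intravasating clones (SD of 2), against 0.366 ± 0.0962 over non-intravasating clones (SD of 4). Both genes were added for their ligands after the values were seen, and neither was called by limma.

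The class I members were more methylated than the class II members in each of the 6 clones. Class I promoters averaged 0.519 in E and 0.459 in T, and 0.536 in I, 0.528 in K, 0.418 in L and 0.515 in P. Class II promoters averaged 0.283 in E and 0.254 in T, and 0.265 in I, 0.288 in K, 0.225 in L and 0.268 in P. Class I minus class II was 0.232 over the 6 clones, and 0.180 among members above 0 in every clone. All 18 class II members are neighbours at the far end of the range, so class and place cannot be told apart. The 920 class II promoters that were not members had a median of 0.343, above the 0.255 of the class II members. The 11 class I promoters that were not members had a median of 0.207, and the 9 of them between the first and the last member had 0.255. Outside the members the class I median was thus the lower one.

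**Figure D1:**
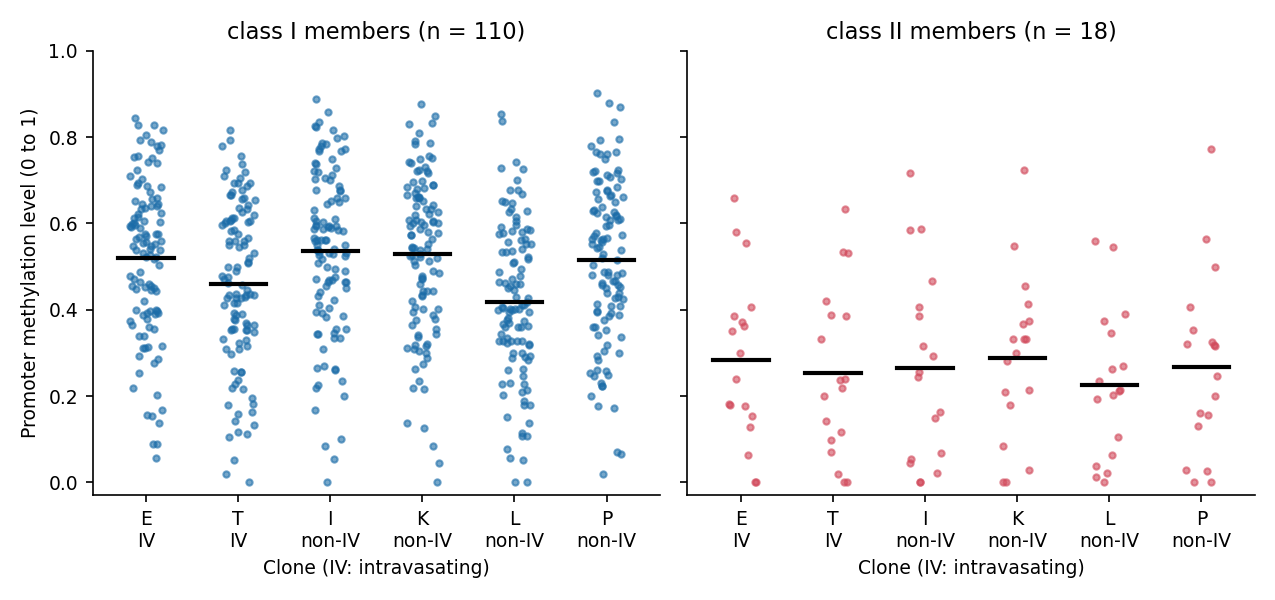
Promoter methylation level (0 to 1, vertical axis) of each class I member (n = 110) and class II member (n = 18) in each clone, intravasating clones E and T first; each point is 1 promoter and each bar a mean. Class I means lay between 0.418 (clone L) and 0.536 (clone I), and class II means between 0.225 (clone L) and 0.288 (clone K).

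MOR families with at least 5 members differed in level. The class II family MOR283 had the lowest median, 0.173, and ranged from Olfr695 at 0 to Olfr704 at 0.637 (n = 12). Among class I families, MOR14 was at 0.451 (n = 8), MOR13 at 0.469 (n = 6) and MOR40 at 0.493 (n = 8). MOR32 reached 0.599 (n = 11), MOR31 0.633 (n = 10) and MOR34 0.709 (n = 7). A single family could span most of the range: in MOR32, Olfr603 was at 0.0995 and Olfr678 at 0.730.

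Median levels differed between stretches of the chromosome. Members more than 150 kb from the previous one were taken to start a new block, a limit set after the data were seen, which gave 5 blocks. The first, Olfr543 to Olfr630, held 66 members over 1281 kb with a median of 0.448. Beyond the beta-globin genes, Olfr632 to Olfr649 held 14 members with a median of 0.628, and Olfr651 to Olfr663 held 11 with a median of 0.669. Block 4, Olfr665 to Olfr692, held 23 members with a median of 0.565. The fifth, 1309 kb farther on, was the class II group Olfr693 to Olfr714, with 18 members and a median of 0.255. Blocks 2, 3 and 4 thus had higher medians than blocks 1 and 5, but single levels overlapped widely. Members ran from 0.0459 to 0.826 in block 1 and from 0.291 to 0.839 in block 4.

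Within the first block the level was uneven. In groups of 12 consecutive members, the median was 0.630 from Olfr543 to Olfr556, 0.408 from Olfr557 to Olfr572 and 0.356 from Olfr574 to Olfr591. It was 0.50 from Olfr592 to Olfr606 and 0.373 from Olfr608 to Olfr620. Also in this block was the longest run of members below 0.5, Olfr611 to Olfr622, with 10 members and a median of 0.331. The longest runs above 0.5 held 8 members each. The first lay in blocks 2 and 3, across the gap between them, from Olfr646 to Olfr655, with a median of 0.671. The other, of the same length, lay in blocks 3 and 4, from Olfr663 to Olfr671.

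The gap between the first block and the second was measured between members only. It holds beta-globin genes and also receptors that are not members. Olfr630, the last member before the gap, was at 0.0899 in E and 0.0517 in T, and 0.0536 in I, 0.0455 in K, 0.0519 in L and 0.0667 in P. The receptors that follow, which are not members, were Olfr69, Olfr68 and Olfr67, at 0.193 ± 0.0791, 0.159 ± 0.0631 and 0.204 ± 0.0544 (SD, n = 6). The embryonic globin genes Hbb-bh1 and Hbb-y were at 0.165 ± 0.0372 and 0.0922 ± 0.0591. Just before Olfr630, Olfr629 and Olfr628 were at 0.339 ± 0.116 and 0.350 ± 0.0407, so Olfr630 alone was as low as Hbb-y among these members. Behind the globin genes Olfr66 was at 0.464 ± 0.0431, Olfr64 at 0.207 ± 0.139 and Olfr65 at 0.780 ± 0.0405. The next member, Olfr632, was at 0.691 ± 0.0273 (SD, n = 6).

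**Figure D2:**
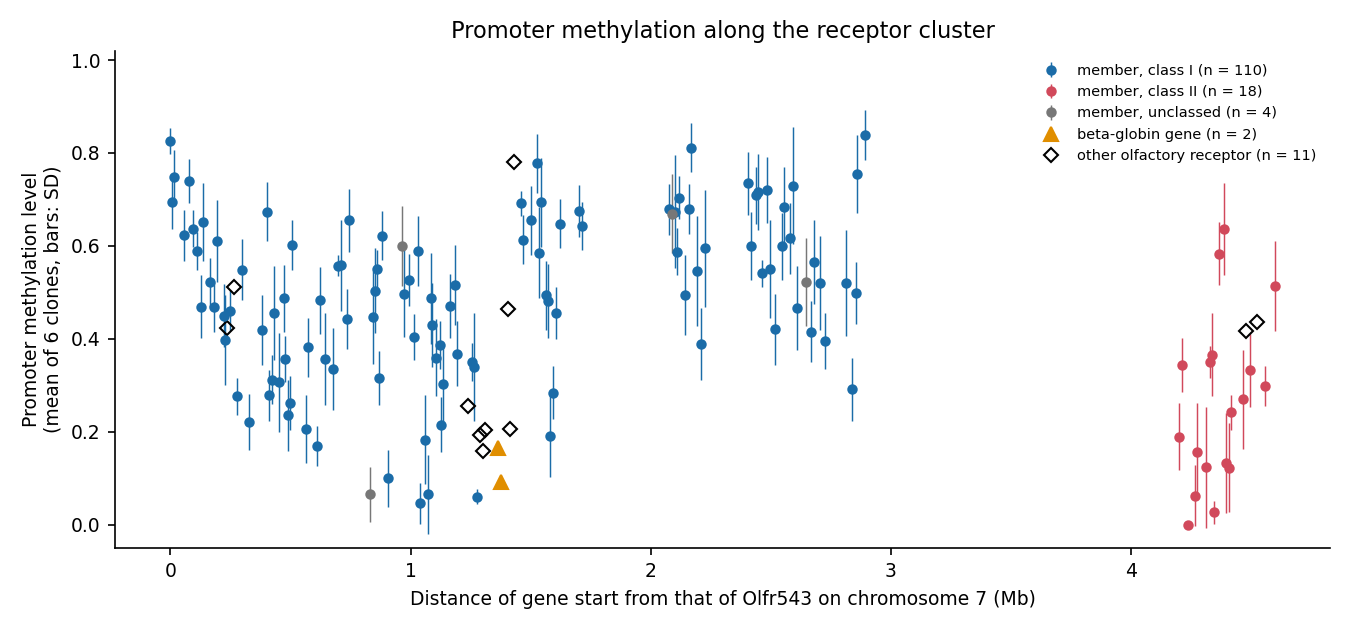
Mean promoter methylation level over 6 clones (vertical axis, bars on members: SD) by distance in Mb of the gene from Olfr543 (horizontal axis, RefSeq GRCm38.p6), for members by class, other olfactory receptors and beta-globin genes. Block medians were 0.448, 0.628, 0.669, 0.565 and 0.255 from left to right.

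Neighbouring members were more alike than members at large. The median absolute difference of the mean level was 0.131 between adjacent members (131 pairs) and 0.192 between all pairs of members (8646 pairs). Across adjacent members Pearson's r was 0.40 and Spearman's rho 0.435. Adjacent members of the same MOR family differed by a median of 0.130 (54 pairs), and other adjacent members by 0.132 (77 pairs). Pairs of the same family at any distance differed by 0.159 (296 pairs). These pairs share clones and libraries.

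Genes that olfactory neurons need to use their receptors were mostly more methylated than the receptors. Of 20 listed signalling and receptor choice genes, 18 had 21 promoters, with a median of 0.743, and 15 were above 0.5. Omp, the olfactory marker protein gene, was at 0.834 ± 0.0305, and Lhx2 and Ebf3, whose proteins bind receptor promoters, were at 0.867 ± 0.0293 and 0.944 ± 0.0133 (SD, n = 6). Below the member median of 0.487 were the channel subunit gene Cnga2 at 0.186 ± 0.0855 and the histone demethylase gene Kdm1a at 0.134 ± 0.00899. Both promoters of the LIM cofactor gene Ldb1 were also below it, at 0.0206 and 0.174. So were the channel genes Ano2 at 0.336 ± 0.0307 and Cngb1 at 0.384 ± 0.0347. In the limma fit 0 of the 21 promoters were called in either direction, and 1 had an unadjusted p under 0.05, that of Omp.

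The other genes between the receptors had no common level. The 32 of them had 34 promoters with a median of 0.324, 11 above 0.5 and 15 below 0.2. Cckbr, the gastrin receptor gene, was at 0.879, and Ilk, the integrin-linked kinase gene, had promoters at 0.0103 and 0.0111. limma called 0 of them, and 1 had an unadjusted p under 0.05. As a check of the cell type, 8 promoters of mammary epithelial markers had a median of 0.222, with Cdh1 at 0.0856 and Krt8 at 0.139 but Krt5 at 0.643. The medians were 0.762 for olfactory neuron, 0.647 for leukocyte and 0.646 for fibroblast markers. In the same order, 7 of 8, 5 of 6 and 6 of 8 promoters were above 0.5. Their lowest promoters were Cnga2 at 0.186, Lyz2 at 0.343 and 1 of Pdgfra at 0.0597. That Pdgfra promoter was below every epithelial marker promoter.

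No member was called between the intravasating and the non-intravasating clones. limma called 0 of 132 members at an adjusted p under 0.05, against 0.00911% of all promoters, which were 2 promoters, both higher in the intravasating clones. At an unadjusted p under 0.05 there were 0 members, against 3.93% of all promoters. Members averaged 0.486 in E and 0.430 in T, and 0.498 in I, 0.494 in K, 0.390 in L and 0.480 in P. The group mean was 0.458 ± 0.0395 over intravasating clones (SD of 2), against 0.466 ± 0.0510 over non-intravasating clones (SD of 4). Their difference of -0.00780 was smaller than either spread. It was -0.0357 without clone E and -0.0330 without clone L, and its sign turned without clone T, I or K, at 0.0201, 0.00298 and 0.00179.

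Few single members stood apart between the groups. The mean was higher in the intravasating clones in 56 members, lower in 75 and equal in 1. The median difference was -0.00875 in members and -0.00424 over all promoters. Both intravasating clones lay above all 4 others in 3 members, against 4.31% of all promoters, and below them in 2 members, against 6.89%. In either direction this was 5 members, or 3.79%, against 11.2% of all promoters. Without clone E or T the count was 36 of 132 each, or 27.3%, when 37.1% and 34.0% of all promoters did not overlap. Without clone L it was 32, or 24.2%, against 24.98%, and without clone K 13, or 9.85%, against 15.9%. Without clone I or P it was 10 each, or 7.58%, against 17.4% and 15.9% of all promoters.

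The 3 members that were higher without overlap were Olfr561, Olfr694 and Olfr713. Olfr561, a class I gene, was at 0.601 in E and 0.602 in T, against 0.593 in I, 0.471 in K, 0.461 in L and 0.566 in P. Clones E and T were nearly equal there and clone I was just below them. Its difference was 0.0784 (limma SE 0.0524, unadjusted p = 0.170). Olfr694, a class II gene, was at 0.407 in E and 0.385 in T, against 0.244 in I, 0.333 in K, 0.375 in L and 0.319 in P, with a difference of 0.0776 (SE 0.0504). Clone L came close to clone T there. Olfr713, also class II, was at 0.363 in E and 0.333 in T, against 0.293 in I, 0.281 in K, 0.269 in L and 0.247 in P, with a difference of 0.0756 (SE 0.0396).

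The 2 members that were lower without overlap were Olfr672 and Olfr570, both class I. Olfr672 was at 0.388 in E and 0.329 in T, against 0.55 in I, 0.402 in K, 0.394 in L and 0.458 in P, with a difference of -0.0928 (limma SE 0.0589). Clone I was the highest and clones K and L lay close to clone E. Olfr570 was at 0.254 in E and 0.255 in T, against 0.383 in I, 0.355 in K, 0.327 in L and 0.299 in P, with a difference of -0.0860 (SE 0.0434, unadjusted p = 0.0795). Its groups were parted by 0.0433, the widest gap of the 5. The smallest unadjusted limma p of any member was 0.0571, for Olfr692, whose groups overlapped and whose difference was -0.0718 (SE 0.0328).

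**Figure D3:**
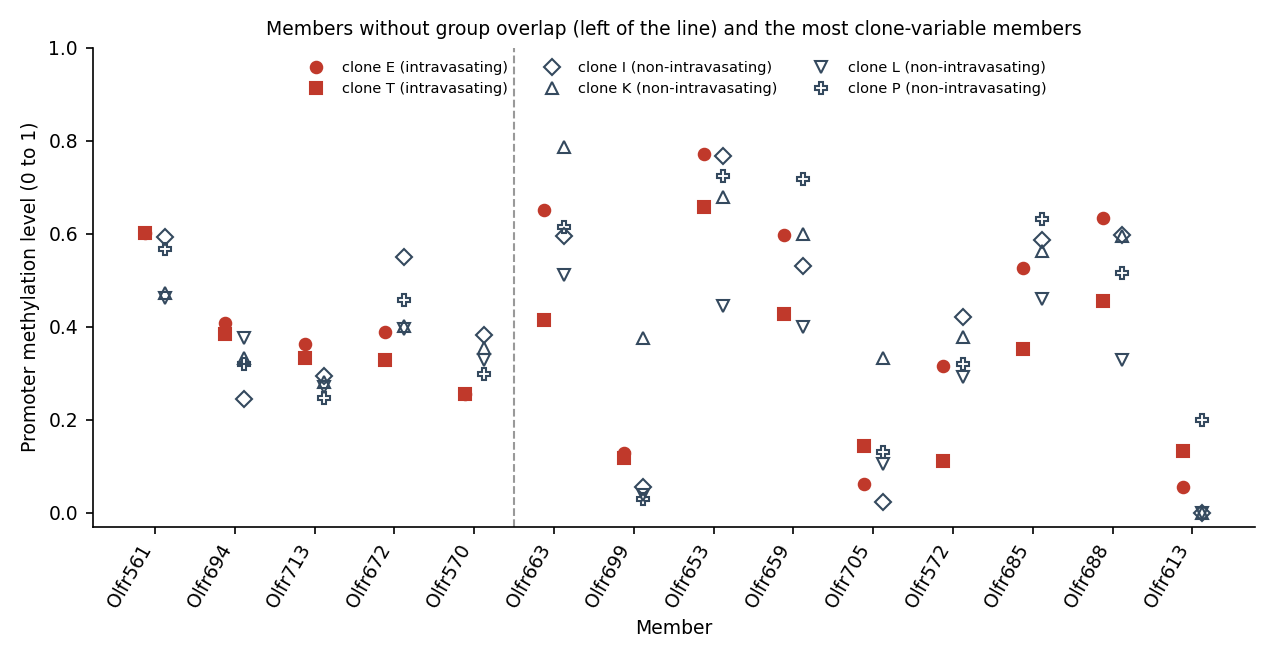
Promoter methylation level (0 to 1, vertical axis) of each clone in named members, with intravasating clones E and T left of clones I, K, L and P; members left of the dashed line had no overlap between the groups. The gap between groups was at most 0.0433, in Olfr570.

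Single clones differed widely at many members. The median range over the 6 clones was 0.184 in members, 0.175 in other olfactory receptors and 0.0894 over all promoters. At matched levels the gap to all promoters was smaller. From 0.4 to 0.6 the median range was 0.203 in members, 0.189 in other olfactory receptors and 0.162 in all promoters. From 0.2 to 0.4 it was 0.178, 0.188 and 0.126, and from 0.6 to 0.8 it was 0.168, 0.160 and 0.131. A range of at least 0.2 was found in 51 members, or 38.6%, against 38.2% of other olfactory receptors and 10.6% of all promoters. Olfr663 had the widest range, at 0.651 in E and 0.415 in T, and 0.594 in I, 0.786 in K, 0.510 in L and 0.614 in P. Its extremes, clones T and K, belong to different groups, and the groups overlapped. Olfr659 was at 0.598 in E and 0.427 in T, and 0.529 in I, 0.60 in K, 0.40 in L and 0.717 in P, with clone P highest and clones L and T lowest.

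Clone L was the low clone of these genes. It was the lowest of the 6 in 79 members, or 59.8%, against 47.2% of other olfactory receptors and 36.0% of all promoters. It lay below all of clones E, I, K and P in 97 members, or 73.5%, against 46.3% of all promoters. Clone L minus the mean of clones E, I, K and P was -0.0996 in members, -0.0842 in other olfactory receptors and -0.0364 over all promoters. The intravasating clone T was also low, and its differences were -0.0597, -0.0545 and -0.0287 in the same order. Each group thus held 1 low clone. The part of sequencing depth in these differences was not tested.

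The shortfall of clone L varied with the level of the promoter. From 0.4 to 0.6, clone L minus clones E, I, K and P averaged -0.122 in members (n = 48), -0.100 in other olfactory receptors (n = 270) and -0.0677 in all promoters (n = 2893). From 0.6 to 0.8 it was -0.106 in members (n = 33), -0.101 in other olfactory receptors and -0.0699 in all promoters. From 0.2 to 0.4 it was -0.0886 in members (n = 32), -0.0907 in other olfactory receptors and -0.0375 in all promoters. At matched levels the members were thus nearer to other olfactory receptors than to all promoters. Among the blocks the difference was -0.130 in block 4 and -0.0512 in the class II block. These blocks were not matched for level, with medians of 0.565 and 0.255. Members with a mean below 0.2 were at -0.0533 (n = 16).

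**Figure D4:**
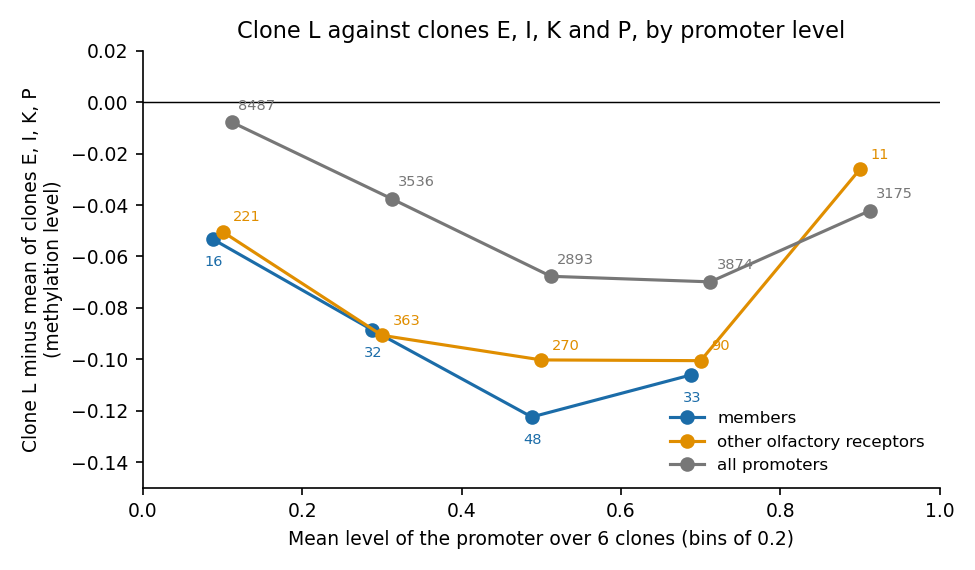
Clone L minus the mean of clones E, I, K and P (vertical axis, methylation level) by the mean level of the promoter over 6 clones (horizontal axis, bins of 0.2), for members, other olfactory receptors and all promoters, with the number of promoters beside the points; the 3 members above 0.8 are not drawn. Members reached -0.122 at levels from 0.4 to 0.6, where all promoters were at -0.0677.

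Members that stood far from the rest in a single clone were more frequent than such promoters at large at a limit of 0.2, though not at 0.25. Taking each clone in turn, 17 deviations of at least 0.2 were counted among the 132 members, or 12.9 per 100 members, against 5.51 per 100 promoters over all. At 0.25 the values were 2.27 and 2.29. This is a description, with no test, and the promoters were not matched for level. Such deviations were not counted in other olfactory receptors. A range of at least 0.2 was found in 38.2% of those, against 38.6% of members. Clone L was at least 0.2 below the median of the other 5 clones in 8 members, or 6.06%, against 1.28% of all promoters, and above it in 0 members, against 0.2%. Olfr653 was at 0.445 in clone L, against 0.771 in E, 0.657 in T, 0.767 in I, 0.679 in K and 0.725 in P. Olfr688, whose window is printed above, was at 0.328 in clone L, against 0.633 in E, 0.456 in T, 0.596 in I, 0.595 in K and 0.515 in P. Clone L was the lowest clone at both genes. Over the blocks, it was the lowest in 44 of 66, 9 of 14, 7 of 11 and 15 of 23 members of blocks 1 to 4, and in 4 of 18 of block 5. The blocks were not matched for level. By level, clone L was the lowest in 18.75% of members below 0.2 and in 75% of those from 0.4 to 0.6.

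Clone K was at least 0.2 above the others in 5 members, or 3.79%, against 0.533% of all promoters, and below them in 1, or 0.758%, against 0.273%. Of the 5 higher ones, 3 were class II genes. Olfr699 was at 0.375 in clone K, against 0.128 in E, 0.118 in T, 0.0541 in I, 0.0377 in L and 0.0294 in P. Olfr705 was at 0.333 in clone K, against 0.0625 in E, 0.143 in T, 0.0227 in I, 0.104 in L and 0.130 in P. Both promoters were low in every clone but K. The third, Olfr710, was at 0.456 in clone K, against 0.239 in E, 0.237 in T, 0.149 in I, 0.214 in L and 0.321 in P.

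Clone T was at least 0.2 below the others in 2 members, or 1.52%, against 0.883% of all promoters. Olfr572 was at 0.111 in clone T, against 0.316 in E, 0.422 in I, 0.377 in K, 0.292 in L and 0.319 in P. Olfr685 was at 0.352 in clone T, against 0.526 in E, 0.587 in I, 0.563 in K, 0.460 in L and 0.632 in P. Olfr572 had a difference between the groups of -0.139 (limma SE 0.0645, unadjusted p = 0.0599), but only clone T was low, and clone E lay among the non-intravasating clones. Clone P was at least 0.2 above the others in 1 member, or 0.758%, against 0.46% of all promoters, namely Olfr613, which was at 0.20 in clone P, against 0.0556 in E, 0.133 in T, 0 in I, 0 in K and 0 in L. Clone T was that far above the others in 0 members, against 0.105%, and clone P below them in 0, against 0.168%. Clones E and I were that far above the others in 0 members, against 0.692% and 0.651% of all promoters, and below them in 0, against 0.141% and 0.123%.

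**Figure D5:**
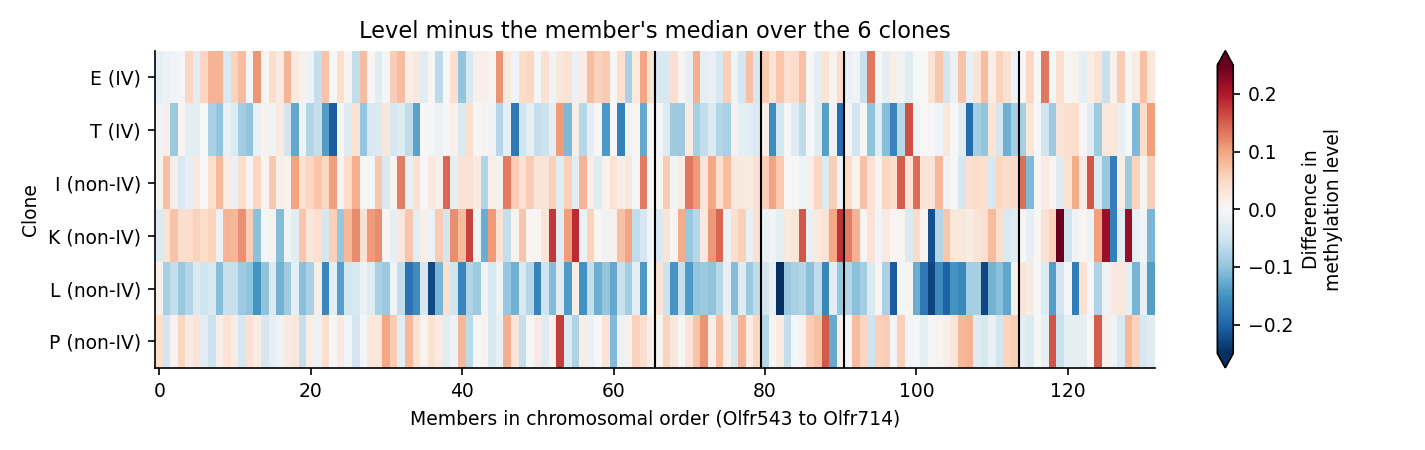
Level of each clone (rows, intravasating clones E and T on top) minus the median of the 6 clones, in colour, for the 132 members in chromosomal order (columns); lines part the 5 blocks. Clone L is the lowest clone in 79 members and clone T in 28.

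Clones did not pair by group over these genes. Clones E and I, from different groups, were the closest of the 15 pairs, with a mean absolute difference of 0.0562 over the 132 members, followed by E and P at 0.0607. The intravasating pair E and T was at 0.0767, rank 8. Clones T and L were at 0.0692, rank 4, and clones K and L were the farthest apart, at 0.118.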

How the data were processed

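Per the labels' protocols, genomic DNA of each clone was sheared, ligated to methylated adapters, bisulfite converted and sequenced as 76 nt paired-end reads, in 2 rounds per clone. The authors deposited 1 methylation level per promoter and clone, a fraction from 0 to 1, with no counts, so depth is unknown and no counting interval can be given. Per the submitters' processing notes, bedtools, DESeq and mm10 were named with no role; for the aligner, the promoter bounds, the averaging and the joining of rounds the sources used here give nothing. The parental line and the table of hypomethylated regions, whose coordinates ran past mm10, were not analysed here.

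Repeated rows (145 of 22110) were left out. The test on these fractions was limma's, version 3.58.1, under R 4.3.3 (mean trend, Benjamini-Hochberg over 21965 promoters, adjusted p under 0.05); a logistic model of counts, planned in case counts were deposited, was not needed. Summaries were made in Python 3.11.15 with NumPy 2.4.6, SciPy 1.17.1 and pandas 2.3.3. Gene positions, classes and windows came from RefSeq (GRCm38.p6): 18885 of 20343 names matched a symbol and 1343 an older name, which left 115 unmatched. On simulated data, limma recovered 15.5%, 45.5% and 93% of promoters changed by 0.1, 0.2 and 0.4 in this comparison over 21965 promoters. The changed promoters were drawn from all promoters, whose median SD over the clones was 0.0337, against 0.0683 in members. Shifts shared by the promoters of a clone were not simulated, and recovery among members alone was not measured. Named members were those without overlap between groups (up to 6 a direction), the 5 highest and 5 lowest, and the 6 with the widest range. Up to 2 per clone at least 0.2 from the other clones' median were also named. Further genes came from the lists or from their place. Olfr603, Olfr678 and Olfr704 were chosen by value, as the lowest or highest of their families. Olfr544, Olfr558 and Olfr710 were added after their values were seen. Members and lists were chosen with earlier results of these data known. Alternatives changed the scale, variance trend, centring, range filter, repeated rows, chromosomes and threshold, and left out each clone; those on blocks, classes, neighbours and the 0.2 limit were added after the data were seen.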

Additional observations from a re-analysis of the deposited data

Results flagged for a closer look

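Among the 4 non-intravasating clones, the gap between the most extreme clone and its nearest neighbour was divided by the group's whole range, and values above Dixon's critical value for 4 samples were listed. Of 24 groups of values tested, 3 passed, but the named members among them were partly chosen for a clone that stands apart. Over all 132 members 6 passed, and chance flags about 1 in 20 groups. Olfr699 gave 0.929, with clone K at 0.375 and clones I, L and P at 0.0541, 0.0377 and 0.0294. Olfr613 gave 1, with clone P at 0.20 and clones I, K and L listed at 0. With the others at 0, any level of clone P above 0 gives 1, so this flag does not weigh its size. Whether those levels of 0 are usable estimates is unknown, and the intravasating clone T was at 0.133. The mean over the 132 receptors gave 0.835, with clone L at 0.390 and clones I, K and P at 0.498, 0.494 and 0.480.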

How the results depend on the processing

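Only 2 intravasating clones and an unknown depth limit every comparison, and leaving out clone E or T rests on 1 intravasating clone, assumed to vary like the others. limma called 0 of the members in each of 14 alternatives. Their smallest adjusted p ranged from 0.571 (without clone T) to 1, and at an unadjusted p under 0.05 stood 0 to 12 members, the most without clone L, where they were 9.09% of members against 7.70% of all promoters. Centring gave 5.30% against 3.81%, and leaving out clone E 5.30% against 4.402%. Of all promoters, 2 were called, against 0 with no mean trend (943 at an unadjusted p under 0.05), 5 with clones centred on their medians, 25 when only those ranging by 0.1 or more were fitted, and 0 (without clone L, where 1691 had an unadjusted p under 0.05) to 4 (without clone E) with a clone left out. Members without overlap numbered 13 after centring, or 9.85% against 9.74% of all promoters, and 10 to 36 with a clone left out. Class I minus class II was 0.180 among members above 0 in every clone, the CG relation fell to r = 0.0896 with at least 2 CG, and a gap of 200 kb gave 3 blocks. The median member exceeded other olfactory receptors by 0.143, or 0.140 to 0.160 with a clone left out, the highest without clone L. At a limit of 0.15, 70 single-clone deviations were counted, or 53.0 per 100 members against 14.9 per 100 promoters over all. At 0.25 there were 3, or 2.27 against 2.29, so the excess seen at 0.2 was not found there. The causes were not tested. No paired analysis was possible because the columns carry no round number.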
